A study of Mus musculus with 23 samples.

Results

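Myelin is the lipid-rich membrane that oligodendrocytes wrap around axons of the central nervous system, and it insulates the axon between nodes. Its compact layers are held together by basic proteins on their inner faces, its inner edge faces the axon with adhesion molecules, its layers are sealed by tight junction strands, and its cytoplasmic channels carry cytoskeletal proteins and an abundant phosphodiesterase. The 8 genes described here cover these parts. They are Mbp and Mobp (basic proteins of compact myelin), Mag and Mog (immunoglobulin-like proteins of the innermost and outermost membrane), Cldn11 (the tight junction claudin), Cnp (the phosphodiesterase of non-compact myelin), Ermn (a cytoskeletal protein of oligodendrocytes) and Opalin (a membrane protein of oligodendrocytes in the central nervous system). They were chosen by symbol, and all 8 were found among the 32285 genes measured.

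The 8 genes were measured in single brain cells by droplet RNA sequencing, in mice that had received an AF647-labelled antibody (45 mg/kg, tail vein) 24 hours earlier. ATV-TfR and ATV-CD98hc are antibody transport vehicles (ATVs), built to bind the transferrin receptor or CD98hc and so cross the vessel wall. Each was given to mice with the matching allele, TfR mu/hu KI for ATV-TfR and CD98hc mu/hu KI for ATV-CD98hc. Control IgG went to C57BL/6 mice, the background of both alleles, so treatment and genotype cannot be told apart. All 3 antibodies carry the LALAPG change. Ages are given as 3.3 months with the samples and as 12 weeks in the design. The tissue lacked the olfactory bulbs and the hindbrain parts (cerebellum, pons, medulla). Actinomycin D and anisomycin were present during dissociation, and a sucrose step took away excess myelin before sorting, which bears on the cells studied here. Sorting by AF647 signal gave a negative, a low, a medium and a high bin, and the positive gates came from tertiles of the ATV-TfR cells. Every library joins 1 male and 1 female of a treatment. There are 23 libraries in 12 groups, 11 groups with 2 pools, and control IgG negative with replicate 2 alone.

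After filtering, 234024 cells remained, and 6675 of their 227239 distinct barcode sequences (2.94%) occurred in more than 1 library. Cells were clustered without the 8 genes, and 1 cluster of 6338 cells held all 12 oligodendrocyte markers of a list that contains no member, among them Sox10 and Aspa. It is called oligodendrocyte-like here. The negative libraries held 542 to 1312 such cells (10.7% to 17.6% of cells kept), the low libraries of the ATVs 129 to 247, and the medium libraries 41 to 63. High libraries held 0 to 12, and control IgG libraries outside the negative bin 0 to 14, so levels below are given for the 13 libraries with at least 20 cells.

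The promoters of the members were searched for motifs of 2 factors of the oligodendrocyte lineage. Windows of 250 bases before the annotated start were taken from RefSeq (GRCm38.p6, while the submitters' processing notes name GRCm38). They were searched whole, and the printed sequences are cut before any annotated exon. Both strands were searched for ACAAAG, a core motif of SOX factors such as Sox10. The second motif was CTGGNAC, with any base allowed at N. It was used here for Myrf, the factor that drives myelin genes in maturing oligodendrocytes. No match of one motif overlapped a match of the other. In 32851 promoter windows of the same length, 16.5% held the first and 16.1% the second. Those shares are per window, whereas a member counts once if any of its windows holds a motif. Mbp had no window in this search. Of the 7 members with a window, 4 held the first and 3 held the second in at least 1 of their 9 windows. Mag has 3 of these windows, of which 2 overlap and hold the same matches, and the third, chr7:30914322-30914571, holds neither motif. The windows of Opalin, Mog and Ermn are not printed, although these members also changed in the oligodendrocyte-like cells described next. Capitals mark the matches in the 4 windows printed, whose members changed in those cells too. They are chr7:30914874-30915113 (minus strand) for Mag, chr11:100574689-100574903 (plus strand) for Cnp, chr9:120149492-120149706 (plus strand) for Mobp and chr3:31149670-31149919 (plus strand) for Cldn11.
Mag: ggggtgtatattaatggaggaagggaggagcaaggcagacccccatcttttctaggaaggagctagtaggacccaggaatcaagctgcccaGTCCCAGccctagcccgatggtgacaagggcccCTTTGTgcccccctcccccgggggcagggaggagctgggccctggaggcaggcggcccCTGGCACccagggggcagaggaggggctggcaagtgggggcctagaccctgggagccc
Cnp: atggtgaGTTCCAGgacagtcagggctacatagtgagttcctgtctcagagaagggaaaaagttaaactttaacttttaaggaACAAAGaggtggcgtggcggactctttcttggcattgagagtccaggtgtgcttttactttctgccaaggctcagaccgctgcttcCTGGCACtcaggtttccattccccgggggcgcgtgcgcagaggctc
Mobp: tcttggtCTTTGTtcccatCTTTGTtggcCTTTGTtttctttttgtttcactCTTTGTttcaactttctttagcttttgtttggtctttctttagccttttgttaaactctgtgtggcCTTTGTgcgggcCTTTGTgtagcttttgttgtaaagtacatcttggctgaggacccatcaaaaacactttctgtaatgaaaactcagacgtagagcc
Cldn11: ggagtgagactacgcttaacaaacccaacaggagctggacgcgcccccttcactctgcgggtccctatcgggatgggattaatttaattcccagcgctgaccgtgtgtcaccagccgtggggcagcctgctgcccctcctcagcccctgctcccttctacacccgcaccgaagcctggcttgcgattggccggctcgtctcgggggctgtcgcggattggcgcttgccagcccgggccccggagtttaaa
The printed windows of Mag and Cnp each held 1 match to the SOX motif and 2 to the Myrf motif, Mobp held 6 matches to the SOX motif and none to the other, and the Cldn11 window held neither. A match is a run of letters and not a measured binding site.

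In oligodendrocyte-like cells of the ATV-TfR mice, 6 of the 8 myelin genes rose and 1 fell in the medium bin against the negative bin. Mag rose most (2.08-fold), followed by Cldn11 (1.86-fold), Mobp (1.84-fold), Opalin (1.55-fold), Cnp (1.53-fold) and Mog (1.44-fold), and Ermn fell 1.54-fold. Mbp did not pass the test. The test was edgeR's quasi-likelihood test on UMIs summed per library, in 1 fit over all groups, with Benjamini-Hochberg adjustment over 12278 genes and a threshold of 0.05. In the same comparison 12.6% of the genes tested were higher and 7.7% lower. Counts of members from alternative fits below come without the share of all genes unless it is stated, and were then not compared with it. Levels are given in CPM, the UMIs of a gene per 1000000 UMIs of the class in a library, and each gene is compared with itself only, because the sources used here do not give the part of the transcript that is read.

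**Figure D1:**
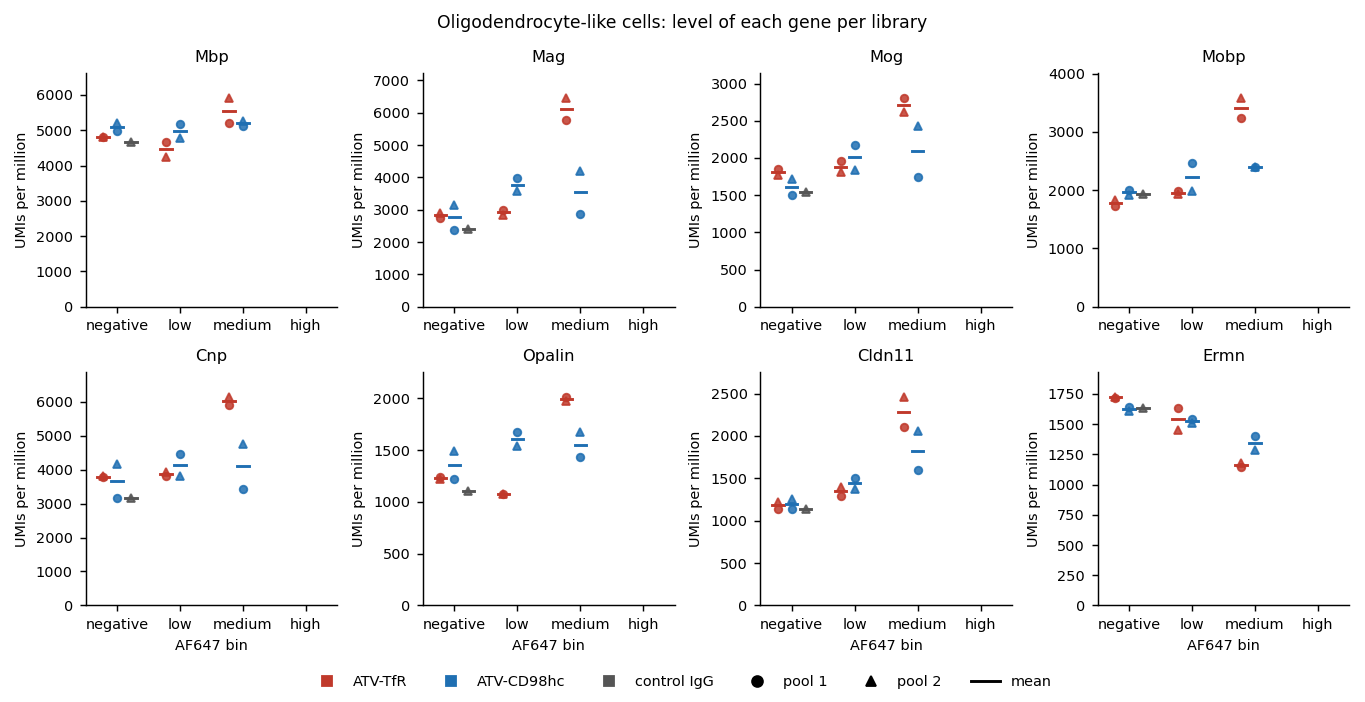
CPM in oligodendrocyte-like cells (vertical axis, from 0) by AF647 bin (horizontal axis) for each of the 8 genes; a point is a library with at least 20 such cells, circles are pool 1, triangles pool 2, and bars are group means. In the ATV-TfR medium bin both libraries lie above all other libraries for Mag (5773 and 6445 CPM), and below all others for Ermn (1148 and 1179 CPM); no high library had 20 cells.

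Mag, the adhesion molecule of the membrane next to the axon, measured 2743 and 2910 CPM in the 2 ATV-TfR negative libraries and 5773 and 6445 CPM in the 2 medium libraries. The medium libraries lay above all other 11 libraries, whose highest value was 4208 CPM. The log2 difference was 1.06 (SE 0.18, adjusted p = 9.27e-05, edgeR). Mog, which lies on the outermost layer, measured 1846 and 1776 CPM in the negative and 2802 and 2614 CPM in the medium bin, with no overlap (log2 difference 0.52, SE 0.17, adjusted p = 0.0273, edgeR). After thinning each cell to 1500 UMIs, Mag had a UMI in 98.1% and 98.0% of cells of the negative libraries and in 96.4% and 98.4% of the medium ones. That share was near its ceiling in every library and could not show a rise.

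Mobp of compact myelin measured 1735 and 1825 CPM in the negative bin and 3240 and 3576 CPM in the medium bin of ATV-TfR (log2 difference 0.88, SE 0.16, adjusted p = 0.000177, edgeR). Mbp, the other basic protein, measured 4821 and 4806 CPM in the negative bin and 5196 and 5907 CPM in the medium bin. Both Mbp values were higher in the medium bin, but the difference of 0.15 (SE 0.15, 95% interval -0.15 to 0.45, adjusted p = 0.56, edgeR) missed the threshold. The 2 genes of compact myelin gave different calls in the same cells, and the difference between the genes was not tested.

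Cnp, the phosphodiesterase of the cytoplasmic channels, measured 3778 and 3814 CPM in the negative bin and 5907 and 6141 CPM in the medium bin (log2 difference 0.61, SE 0.17, adjusted p = 0.0129, edgeR). The gene overlaps Dnajc7 on the opposite strand in the GRCm38 annotation, and whether counting used the strand is not stated, so reads of the 2 genes may not be separated. Cldn11, which forms the tight junctions between myelin layers, measured 1141 and 1218 CPM in the negative bin and 2104 and 2462 CPM in the medium bin (log2 difference 0.90, SE 0.16, adjusted p = 0.000209, edgeR). Opalin measured 1240 and 1224 CPM in the negative bin and 2012 and 1973 CPM in the medium bin (log2 difference 0.64, SE 0.16, adjusted p = 0.00419, edgeR). For each of these 3 genes the medium libraries lay above the negative ones.

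Ermn, the cytoskeletal member, went the other way. It measured 1718 and 1725 CPM in the 2 negative libraries of ATV-TfR and 1148 and 1179 CPM in the 2 medium ones (log2 difference -0.62, SE 0.15, adjusted p = 0.00409, edgeR), and the medium libraries were the lowest of the 13. After thinning, the share of cells with an Ermn UMI was 89.5% and 83.4% in the negative and 61.8% and 77.8% in the medium libraries, against 97.6% and 93.1% of negative and 98.2% and 93.7% of medium cells before thinning. In astrocyte-like cells of the ATV-TfR negative libraries, which should lack the gene, the thinned share was 0.761% and 2.46% (2.38% and 5.09% before), at median depths of 4451 and 3977 UMIs. Ermn overlaps Galnt5 on the opposite strand in the annotation.

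**Figure D2:**
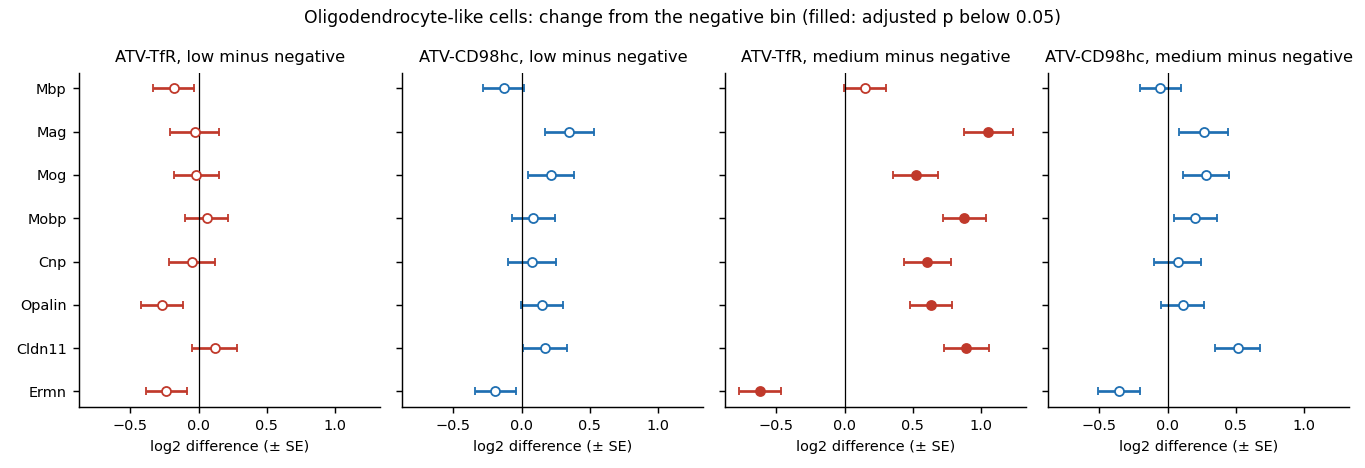
Log2 difference between a bin and the negative bin of the same ATV in oligodendrocyte-like cells (horizontal axis, bars are 1 SE) for the 8 genes (vertical axis); filled points passed the adjusted threshold of 0.05 in edgeR. Filled points appear in the ATV-TfR medium panel alone, 6 to the right of 0 and Ermn at -0.62 to the left.

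The other genes of myelin and its making moved in both directions in the ATV-TfR medium bin. Of 57 tested genes of a list of 60 that holds no member, 13 rose and 21 fell, and their median difference was -0.23 on the log2 scale, against 0.62 for the 8 members and -0.02 for all genes. Nfasc, the neurofascin that anchors the myelin edge (1.52), Gamt, an enzyme of creatine synthesis (1.49), and Sirt2, a deacetylase of myelin (1.31), rose most. Hapln2, a link protein of the nodal matrix (-3.03), Anln, a septin-binding protein of myelin (-2.62), and Pmp22, a peripheral myelin protein (-2.32), fell most. Scaled to the oligodendrocyte markers described below, the counts of the list were 4 and 36, and they were 4 and 13 without ATV-TfR replicate 1 and 3 and 14 without replicate 2. Of the 12 markers that define the class, Tspan2 and Mal were among those that rose, and Gjb1, Aspa and Sox10 fell.

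Several measures moved with the ATV-TfR medium bin, and their part in the result was not tested. It rests on 55 and 63 cells, against 1312 and 1121 in the negative bin, and 1 cell gave up to 8.05% of the Mag UMIs of a medium library. The median UMI count per cell was 13140 and 11195 in the medium libraries and 6709 and 5495 in the negative ones. The 12 astrocyte markers together were at 3435 and 2619 CPM in the medium and at 308 and 407 CPM in the negative libraries, and the 12 endothelial markers at 120 and 168 CPM against 13.1 and 8.65 CPM. Without cells that held 10 or more UMIs of those astrocyte and endothelial markers, 35 and 43 medium cells remained with astrocyte markers at 190 and 206 CPM, and again 6 members rose, while Ermn no longer passed.

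The calls changed with the scale and with the definition of the cells. When the library size was taken as the UMIs of the 12 oligodendrocyte markers, which were at 63654 and 63057 CPM in the medium and 39643 and 38670 CPM in the negative libraries, the median of all genes was -0.66, a shift of -0.64, none of the members rose and 2 fell (Mbp and Ermn), where 48.2% of all genes were lower. Taking as oligodendrocytes all cells with a UMI of at least 4 of the 12 markers, gave 233 and 210 cells in the medium bin, with astrocyte markers at 10508 and 10292 CPM over the whole class, and also 0 members higher and 2 lower, where 16.4% of all genes were lower. Without ATV-TfR replicate 1 the count was 1 higher and 0 lower, and without replicate 2 it was 0 and 0, with 1 library left on each side and the spread taken from the other groups. The differences themselves stayed close, with Mag at 1.06 and 0.97, Cldn11 at 0.92 and 0.78, Cnp at 0.60 and 0.54 and Ermn at -0.64 and -0.69.

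In the ATV-CD98hc mice no member passed the test in the medium bin, where 6.93% of all genes did in either direction, and at an unadjusted p below 0.05 there were 2 members. DESeq2 called 1. With classes from markers per cell, all 8 were lower, among them Mag (-1.33), Cnp (-1.54) and Cldn11 (-1.11), where 15.1% of all genes were. That class held endothelial markers at 12037 and 11158 CPM in the medium and at 72.4 and 162 CPM in the negative libraries, and their part in this was not tested. Cldn11 measured 1140 and 1259 CPM in the negative and 1594 and 2055 CPM in the medium libraries, with no overlap, and its difference of 0.52 (SE 0.16) had an adjusted p of 0.0621 in edgeR. It passed with DESeq2, with RLE scaling factors and with the pool as a block (adjusted p = 0.00718), and also without ATV-CD98hc replicate 1 or without the control IgG library. It did not pass scaled to the oligodendrocyte markers (0.26, adjusted p = 0.348), without ATV-CD98hc replicate 2 (adjusted p = 0.114) or without either ATV-TfR pool (adjusted p = 0.224 and 0.221, edgeR). Ermn measured 1646 and 1607 CPM in the negative and 1404 and 1286 CPM in the medium libraries (log2 difference -0.36, SE 0.15, adjusted p = 0.206, edgeR). The medium libraries of this ATV held 62 and 41 oligodendrocyte-like cells, with endothelial markers at 2667 and 2874 CPM. Mag measured 2387 and 3148 CPM in the negative and 2880 and 4208 CPM in the medium libraries of pools 1 and 2. The bins overlapped, although the medium library was the higher one within each pool. In the medium libraries 1 cell gave 15.6% and 16.4% of the Mag UMIs. Of the other myelin list 1 gene rose (Tspan2, a tetraspanin, 0.54), which was at -1.03 with classes from markers per cell. In the main fit 9 genes of that list fell. The most among them were Klk6, a protease of mature oligodendrocytes (-2.82), Hapln2 (-1.20) and Pmp22 (-1.13). Without cells that held foreign markers 2 rose and 0 fell, and without either ATV-TfR pool 0 rose and 5 fell.

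The difference between the ATVs was itself tested as an interaction, the medium minus negative change in ATV-TfR less that in ATV-CD98hc. No member passed the adjusted threshold, against 3.96% of all genes, and 4 members had an unadjusted p below 0.05. Mag had the largest difference, 0.79 (SE 0.25, 95% interval 0.29 to 1.28, adjusted p = 0.0867, edgeR), followed by Mobp with 0.68 (SE 0.22, interval 0.24 to 1.11, adjusted p = 0.0982). DESeq2 called 1 member as higher, where 227 of 12314 genes were, and with the pool as a block edgeR called 2. Without ATV-CD98hc replicate 1 the count was 1, and without its replicate 2 it was 2. At the adjusted threshold the rise of Mag and Mobp with ATV-TfR was not shown to differ from the change with ATV-CD98hc. In the other myelin list Sirt2 and Nfasc were higher in this contrast and Hapln2 (-1.83), Anln (-1.53) and Apod, a lipid carrier (-1.10), were among the 4 that were lower.

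In the low bins no member passed the test in ATV-TfR, where 9.84% of all genes did, nor in ATV-CD98hc, where 8.68% did, and none had an unadjusted p below 0.05. Mag measured 3006 and 2835 CPM in the ATV-TfR low libraries, a difference of -0.03 (95% interval -0.38 to 0.32). It measured 3977 and 3572 CPM in the ATV-CD98hc low libraries, both above that ATV's negative libraries (difference 0.35, interval 0.00 to 0.70, adjusted p = 0.295, edgeR). Opalin had the largest difference in ATV-TfR, -0.27 (interval -0.58 to 0.03), with 1080 and 1072 CPM in the low libraries, below both negative ones. With classes from markers per cell, all 8 members were lower in ATV-CD98hc low, among them Cnp (-0.97) and Cldn11 (-0.88), where 14.7% of all genes were; that class held astrocyte markers at 8279 and 9629 CPM in the low and 1192 and 903 CPM in the negative libraries, and their part in this was not tested. With the same classes 1 member was lower in ATV-TfR low (5.21% of all genes). Without ATV-CD98hc replicate 2 its count in the low bin was 3 higher, and without either ATV-CD98hc pool that of ATV-TfR was 1 lower. The low libraries of the cluster-based class held astrocyte markers at 2456 to 3048 CPM. Of the 57 genes of the other myelin list 4 rose and 3 fell in ATV-TfR. Klk6 rose by 2.21, Enpp6, an enzyme of newly formed oligodendrocytes, by 1.27 and Tcf7l2, a transcription factor of differentiating oligodendrocytes, by 0.80, and Kif5a, a kinesin (-1.10), Ptgds, a prostaglandin D synthase (-0.62), and Qdpr, a pteridine reductase (-0.52), fell. In ATV-CD98hc 1 rose (Tcf7l2, 0.89) and 6 fell, the most among them Ptgds (-0.77), Prr5l (-0.72) and Edil3, an integrin-binding protein (-0.71). Of these, Tcf7l2 in ATV-TfR was at -0.17 and not called at a Leiden resolution of 2. The low minus negative change of Klk6 was larger in ATV-TfR than in ATV-CD98hc by 2.36 (SE 0.36, adjusted p = 0.00301, edgeR), and was not called without ATV-TfR replicate 1 (adjusted p = 0.0942). No member passed that test of the difference, against 0.155% of all genes, nor had one an unadjusted p below 0.05.

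The negative bins, which hold most of the oligodendrocyte-like cells, allow the treatments to be set side by side. No member passed in ATV-TfR against ATV-CD98hc, where 0.106% of all genes did, against control IgG (0.244%), or in ATV-CD98hc against control IgG (0.0652%), and no member had an unadjusted p below 0.05. DESeq2 also called none. Control IgG is 1 library here, assumed to vary like the other groups, so its comparisons carry little weight. Mbp measured 4821 and 4806 CPM with ATV-TfR, 4976 and 5197 CPM with ATV-CD98hc and 4676 CPM in the 1 control IgG library (counting interval 4630 to 4723 CPM, counting error only). Its difference between the ATVs was -0.07 (95% interval -0.37 to 0.22). Mag measured 2743 and 2910, 2387 and 3148, and 2403 CPM in the same order, so the 2 ATV-CD98hc libraries enclosed all the others. Across the 8 members the differences between the ATVs ran from -0.13 to 0.17 on the log2 scale, with 95% intervals between -0.44 and 0.50.

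UMIs of the 8 genes were also counted in every other named class of cells, at a mean of 0.0786% to 5.03% of their level in oligodendrocyte-like cells of the same negative libraries. In astrocyte-like cells of the 5 negative libraries Mbp was at 1.22% ± 0.375 (SD, n = 5) of its oligodendrocyte-like level and Mobp at 0.922% ± 0.344. Mag was at 0.239% ± 0.056 and Mog at 0.233% ± 0.043 there, and Opalin, Cldn11 and Ermn at 0.302% to 0.380%. Cnp stood at 2.63% ± 0.135, with 2.49% to 2.83% in the 5 libraries, above every other member in each of them. The 8 genes therefore did not keep 1 ratio between the 2 classes.

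**Figure D3:**
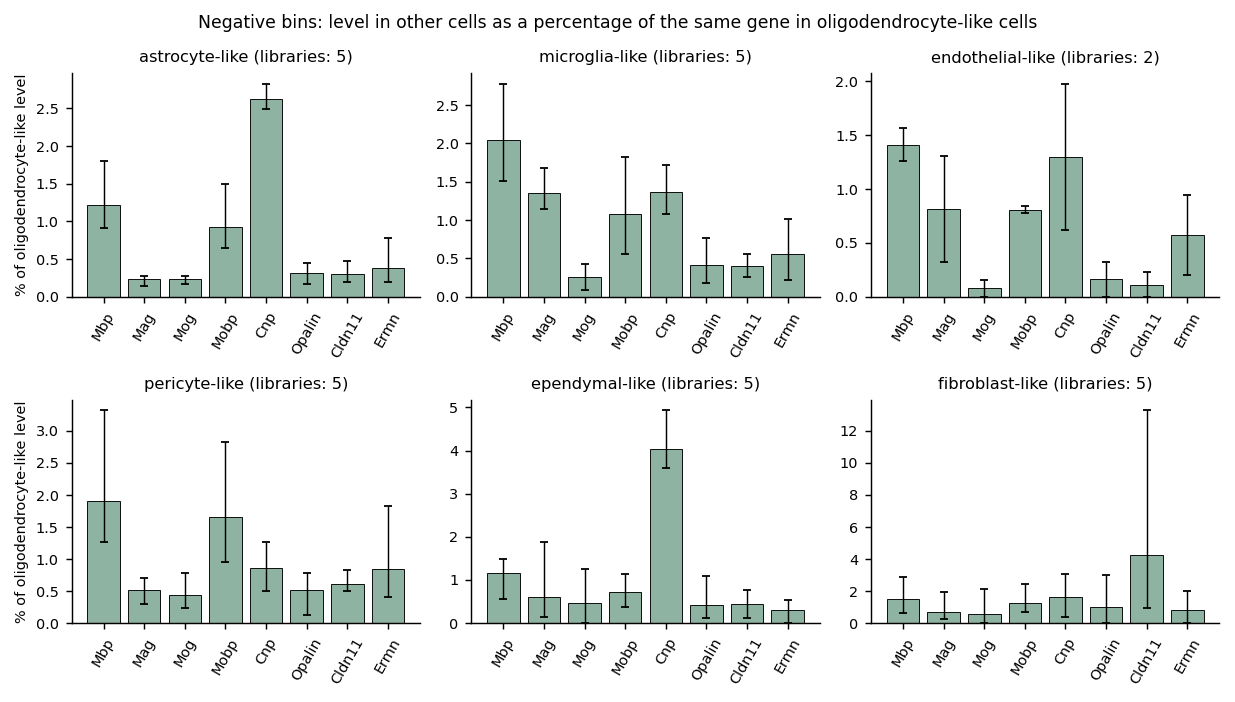
Level of each gene in other classes as a percentage of its own level in the oligodendrocyte-like cells of the same library (vertical axis, from 0, with a scale of its own in each panel); bars are means over negative libraries, and lines run from the lowest to the highest library. Cnp is the highest bar in astrocyte-like (2.63%) and ependymal-like cells (4.04%), Mbp in microglia-like cells (2.05%).

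Other classes had other leaders. In ependymal-like cells, which line the ventricles, Cnp was at 4.04% ± 0.528 of its oligodendrocyte-like level and ranked first among the members in all 5 negative libraries. In microglia-like cells Mbp was at 2.05% ± 0.503 and ranked first in all 5, and Mag stood at 1.35% ± 0.198 there against 0.239% in astrocyte-like cells. The Mag UMIs of microglia-like cells were spread: 9.33% to 12.8% of these cells had one in the negative libraries, 3.70% to 6.82% after thinning, while 1.75% to 3.26% of astrocyte-like cells had one, 0.632% to 1.31% after thinning. Median depths were 2795 to 3951 UMIs in microglia-like and 3695 to 4862 in astrocyte-like cells. In pericyte-like cells Mbp (1.90% ± 0.817) and Mobp (1.65% ± 0.839) were the 2 highest members in each library. In some libraries a single cell weighed heavily: 1 cell gave 49.4% of the 308 UMIs of the 8 genes of border macrophage-like cells in ATV-TfR negative replicate 2, and 76.8% of those of fibroblast-like cells in the control IgG negative library.

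In astrocyte-like cells the level of 7 members fell from the negative to the low bin of ATV-TfR, and Cnp did not pass the test. Of all 16020 genes tested 1.4% were lower. Mbp measured 52.2 and 86.8 CPM in the negative libraries and 23.9 and 26.4 CPM in the low ones (log2 difference -1.44, SE 0.21, adjusted p = 0.000384, edgeR). Mobp measured 16.4 and 27.4 CPM and then 6.64 and 7.32 CPM (log2 difference -1.63, SE 0.19, adjusted p = 2.88e-05, edgeR). The low libraries lay below the negative ones for both genes. Ermn (-1.89), Opalin (-1.77), Mag (-1.52), Cldn11 (-1.29) and Mog (-1.11) fell as well, all from means below 10 CPM. Of 52 tested genes of the other myelin list 15 were lower and 0 higher in this comparison (median -0.42), and 9 were lower and 2 higher in the low bin of ATV-CD98hc. With ATV-CD98hc 5 of the 8 fell in the low bin, Mag, Mobp, Mog, Mbp and Opalin, where 1.34% of all genes did. Mbp measured 46.5 and 70.8 CPM in its negative and 18.7 and 21.7 CPM in its low libraries (log2 difference -1.47, SE 0.21, adjusted p = 0.000451, edgeR). Without ATV-TfR replicate 2 the count of members lower in the ATV-TfR low bin was 1 in place of 7, and without either pool of ATV-CD98hc that of ATV-CD98hc was 3 in place of 5; such fits leave 1 library on each side, here and below.

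The high bins gave the same direction for most members. In astrocyte-like cells of ATV-TfR, 6 members were lower in the high than in the negative bin, where 6.57% of all genes were, with Mbp at 25.2 and 33.1 CPM (log2 difference -1.17, SE 0.29, adjusted p = 0.00926, edgeR). With ATV-CD98hc, Mbp was lower in the high bin at 7.57 and 12.1 CPM (-2.61, SE 0.58, adjusted p = 0.00687, edgeR). Mobp was lower as well at 3.79 and 3.04 CPM (-2.13), near the floor of 2.07 CPM for 3 UMIs over that bin. Of all genes 3.8% were lower. Opalin had 0 UMIs in that high bin and was at least 2.11-fold lower than the 4.36 CPM of the negative bin, with the floor at 3 UMIs over the group, and did not pass the test. Of the other myelin list 18 genes were lower and 8 higher in the high bin of ATV-TfR, and 7 lower and 6 higher in that of ATV-CD98hc. The calls of members depend on single pools: leaving out 1 pool of ATV-TfR gave 1 to 3 lower members in its high bin, and leaving out 1 pool of ATV-CD98hc gave none in its own. The share of UMIs that oligodendrocyte-like cells gave to a library went from 15.2% to 24.7% in negative libraries to 1.09% to 3.02% in the low and 0.0186% to 0.141% in the high libraries of the ATVs. From the low to the high bin of ATV-TfR the share fell from 3.02% and 2.67% to 0.141% and 0.105%. Mbp in astrocyte-like cells measured 23.9 and 26.4 CPM and then 25.2 and 33.1 CPM there. With ATV-CD98hc the share fell from 1.70% and 1.09% to 0.0186% and 0.0341%. Mbp in its astrocyte-like cells measured 7.57 and 12.1 CPM in the high libraries, below its low libraries given above. The part of this share in the levels of other cells was not tested.

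Cnp in astrocyte-like cells rose in the high bins. It measured 96.0 and 94.9 CPM in the negative, 96.6 and 98.6 CPM in the low, 118 and 123 CPM in the medium and 119 and 145 CPM in the high libraries of ATV-TfR. High minus negative was 0.58 (SE 0.13, adjusted p = 0.00386, edgeR), where 9.77% of all genes were higher. With ATV-CD98hc it measured 84.8 and 108 CPM in the negative and 188 and 167 CPM in the high libraries (0.86, SE 0.15, adjusted p = 0.000722, edgeR), where 3.96% were. The high libraries lay above all negative ones in both treatments. Leaving out either pool of ATV-TfR left 1 library on each side and ended its call (log2 difference 0.69 and 0.47, adjusted p = 0.0887 and 0.229, edgeR), and leaving out ATV-CD98hc replicate 1 ended the other (log2 difference 0.58, adjusted p = 0.0535, edgeR).

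The makeup of the astrocyte-like class moved with this change, and its part in the rise was not tested. Cnp differed among the 5 astrocyte-like clusters, and the cluster led by Agt, Itih3 and Igsf1 had 208 CPM in the negative bins of both ATVs, against 88.4 and 79.9 CPM in the largest cluster, led by Cspg5 and Lhx2. A small cluster led by Gria4 and Crym had 245 and 215 CPM, and its share went from 7.49% to 2.23% of astrocyte-like cells from the negative to the high bin of ATV-TfR and from 2.61% to 0.258% with ATV-CD98hc. The Agt cluster made up 9.46% of astrocyte-like cells in the negative and 25.2% in the high bin of ATV-TfR, and 14.8% and 46.8% with ATV-CD98hc. Within it Cnp was at 208 CPM in the negative and 223 CPM in the high bin of ATV-TfR, and at 208 and 251 CPM with ATV-CD98hc. In the largest cluster Cnp went from 88.4 to 106 CPM with ATV-TfR and from 79.9 to 142 CPM, in 1 high library, with ATV-CD98hc. In the cluster led by A330076C08Rik and Aldh1a1 it went from 74.6 to 105 CPM with ATV-TfR but from 78.7 to 59.0 CPM with ATV-CD98hc. In the cluster led by Ptprt and Adam23, Cnp went from 42.3 to 0 CPM, in 1 high library, with ATV-TfR. The high bin of ATV-TfR held 37 cells of that cluster. Within the largest cluster Mbp went from 49.1 CPM in the negative to 18.3 CPM in the low bin of ATV-TfR, and from 46.2 to 14.2 CPM with ATV-CD98hc.

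**Figure D4:**
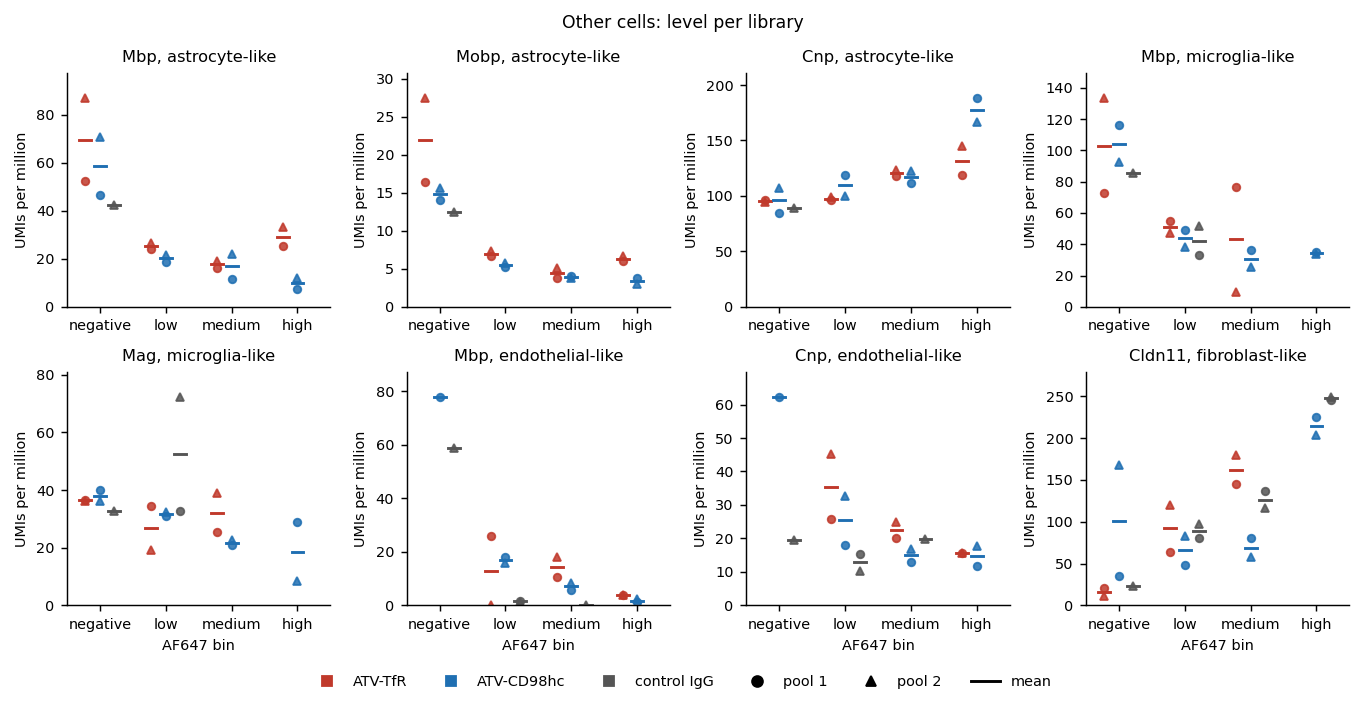
CPM (vertical axis, from 0) by AF647 bin (horizontal axis) for members in astrocyte-, microglia-, endothelial- and fibroblast-like cells; a point is a library with at least 20 cells of the class, circles are pool 1, triangles pool 2, and bars are group means. Mbp and Mobp in astrocyte-like cells fall from the negative to the low bin, while Cnp there (84.8 to 108 CPM in negative libraries) and Cldn11 in fibroblast-like cells are highest in high bins.

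In microglia-like cells 5 of the 8 members had enough UMIs to be tested. Mbp measured 72.9 and 133 CPM in the negative and 54.6 and 47.2 CPM in the low libraries of ATV-TfR (-0.92, SE 0.26, adjusted p = 0.0321, edgeR), and Mobp 15.02 and 33.3 CPM and then 7.67 and 4.82 CPM (-1.80, SE 0.48, adjusted p = 0.0226). These were the 2 members that fell there, where 0.329% of all genes did. With ATV-CD98hc, Mbp was the member that fell in the low bin (116 and 92.7 CPM to 49.3 and 38.2 CPM, -1.24, SE 0.24, adjusted p = 0.00398, edgeR), where 0.182% of all genes did. Mbp was also the member that fell in the high bin (35.2 and 33.8 CPM, -1.57, SE 0.48, adjusted p = 0.0422, edgeR), where 1.58% did. The high libraries of ATV-CD98hc held 60 and 26 microglia-like cells, with a floor of 6.96 CPM for 3 UMIs over that bin. DESeq2 called no member in any of these 3 comparisons, where 14 of 13526, 10 of 14436 and 114 of 12616 genes were lower. Without ATV-TfR replicate 2 none fell in its low bin, and without ATV-CD98hc replicate 1 none fell in either bin of ATV-CD98hc, nor in the high bin without the control IgG pool. With the pool as a block, 3 members were lower in the low bin of ATV-CD98hc (Mbp, Mobp and Ermn) and 2 in its high bin (Mbp and Mobp). With doublets kept, 8, 8 and 6 members were lower in the same order. The shares of all genes in the block and doublet fits are not given here. Mag measured 36.7 and 36.3 CPM in the negative and 34.5 and 19.3 CPM in the low libraries of ATV-TfR (-0.37, 95% interval -0.83 to 0.09), and 40.0 and 36.1 CPM against 31.0 and 32.3 CPM with ATV-CD98hc (-0.24, interval -0.66 to 0.18). Cnp differed by -0.09 and 0.10 in the same comparisons. Of 33 tested genes of the other myelin list 7 were lower in the low bin of ATV-TfR and 4 in that of ATV-CD98hc, with 0 higher in either, and 4 were lower and 3 higher in the high bin of ATV-CD98hc. Neither Mag nor Cnp passed the test. Between the negative bins of the 2 ATVs no member was called in microglia-like cells (0.0173% of all genes) or in astrocyte-like cells (0.805%), with 1 and 2 members at an unadjusted p below 0.05.

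In endothelial-like cells, the lining of the vessels, 7 members were lower with ATV-CD98hc in the high than in the low bin, where 6.77% of all genes were. Mbp measured 18.1 and 15.9 CPM in the low and 1.15 and 2.29 CPM in the high libraries (-3.11, SE 0.42, adjusted p = 0.000106, edgeR), and Mag 2.27 and 5.82 CPM and then 0.112 and 0.172 CPM (4 and 7 UMIs, log2 difference -4.67, SE 0.62, adjusted p = 9.99e-05). Cnp measured 18.1 and 32.6 CPM and then 11.8 and 17.7 CPM and did not pass (-0.65, interval -1.27 to -0.02, adjusted p = 0.355, edgeR). Of 45 tested genes of the other myelin list 19 were lower and 0 higher here. Without ATV-CD98hc replicate 2 the count was 3. With control IgG, where the negative bin is 1 library and no test is given, Mbp was at 1.59 and 1.40 CPM in the low bin against 58.9 CPM in that library, and Mog and Opalin had 0 UMIs in the low bin. In ATV-TfR, high minus low called no member, against 0.619% of all genes, and none had an unadjusted p below 0.05. The median difference of the 8 members was -2.09 there, against 0.28 for all genes, and -4.08 against 0.06 with ATV-CD98hc. The low libraries of ATV-TfR held 56 and 37 endothelial-like cells, so the absence of a call does not show that the levels were alike.

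Cldn11 in fibroblast-like cells of the meninges and vessels was higher in the positive bins than in the negative bin of ATV-TfR and control IgG; it is described without a test. It measured 21.0 and 11.1 CPM in the negative, 64.2 and 120 CPM in the low and 145 and 180 CPM in the medium libraries of ATV-TfR. In control IgG it measured 23.6 CPM in the negative library, 80.2 and 97.1 CPM in the low, 136 and 117 CPM in the medium and 246 and 249 CPM in the high libraries. ATV-CD98hc negative libraries had 34.8 and 167 CPM, of which 1 cell gave 83.3% and 95.2% of the UMIs, its low libraries 48.8 and 83.2 CPM, its medium libraries 80.0 and 58.0 CPM and its high libraries 225 and 203 CPM, so that only the high bin lay above both negative libraries. The high libraries were above the negative ones in both treatments with 20 fibroblast-like cells in each. After thinning, 21.1% to 25.8% of fibroblast-like cells had a Cldn11 UMI in the high libraries of control IgG and ATV-CD98hc (48.7% to 62.1% before) and 1.35% to 3.85% in the 5 negative libraries (5.56% to 7.69% before). In astrocyte-like cells of the ATV-TfR high libraries the thinned share was 0.175% and 0.263%.

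The fibroblast-like class also changed its makeup. The cluster led by Slc6a13 and Spp1 made up 94.5% of fibroblast-like cells in the ATV-TfR negative and 94.9% in the control IgG negative bin, and the cluster led by Coch and Igfbp4 87.1% in the control IgG high bin. Within the Slc6a13 cluster Cldn11 was at 107 CPM ± 101 (SD, n = 2) in the negative bin of ATV-CD98hc, where 1 cell gave most of the Cldn11 UMIs of the class in each library, and at 69.4, 45.3 and 349 CPM in its low, medium and high bins, and at 20.2 CPM in the negative and 178 CPM in the low bin of control IgG. Within the Coch cluster it was at 76.0 CPM in the low and 214 CPM in the high bin of control IgG.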

How the data were processed

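Per the labels, each of the 23 libraries holds cells of 1 pool and 1 AF647 bin. The authors deposited 1 table of UMI counts per gene and cell for the whole series, with barcodes and genes in accompanying lists, and the submitters' processing notes name Cell Ranger 7.1.0, Seurat 4 and 5, mm10 and GRCm38. The members and the gene lists were chosen with earlier results of these data known.

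Barcodes with at least 500 genes, 800 UMIs and at most 10% mitochondrial UMIs were kept, doublets were removed with Scrublet in scanpy 1.11.5 (15691 of 249715 barcodes; where its automatic threshold marked almost no or very many cells, the highest scores were removed instead), and cells were clustered (Leiden, 2000 variable genes without the 8 members) and named from marker lists. Library totals ran from 1861238 to 90307818 UMIs. UMIs were summed per class and library with at least 20 cells and tested with edgeR 4.0.16 (TMM factors, filterByExpr, quasi-likelihood, 1 fit per class), and the script was tested on simulated data. DESeq2 1.42.0 was an alternative. Intervals are 95% normal intervals of the log2 difference, and counting intervals (exact Poisson) and floors of 3 UMIs cover counting error only.

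All 8 members are named, and of 60 other myelin genes (58 found) up to 3 called genes per direction. Gene positions come from the GRCm38 annotation, and promoter windows from RefSeq. Replicate numbers mark the pool of animals, so samples with the same number within a treatment share animals. The correlation of their deviations from the group means ran from -0.23 to 0.73 over 12 pairs of bins in astrocyte-like cells and from -0.02 to 0.49 over 6 pairs in oligodendrocyte-like cells. High bins could not be tested in oligodendrocyte-like cells, and the low and medium contrasts, the low contrasts of other cells and the high minus low contrasts of endothelial-like cells were added after the cell numbers were seen.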

Additional observations from a re-analysis of the deposited data

Results flagged for a closer look

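The change from the negative bin differed between the 2 ATVs, by the test of the difference itself in oligodendrocyte-like cells, for 7 genes of the other myelin list, of which 6 are named here, and for no member. In the low bin Klk6 was higher in ATV-TfR by 2.36 on the log2 scale, with a range of 1.98 to 2.97 over 19 alternatives. It kept its call in 18 of them. In the medium bin Sirt2 was higher by 1.10 (0.72 to 1.35) and Nfasc by 1.03 (0.63 to 1.28). Hapln2 was at -1.83 (-2.20 to -1.26), Anln at -1.53 (-1.92 to -0.90) and Apod at -1.10 (-1.49 to -0.57) in the same comparison. Hapln2 and Anln kept their calls in 17 of 19 alternatives and the other 3 in 16, and no value changed sign. Not every ended call came from a left-out pool, and Anln lost its call with classes from markers per cell (-0.90, adjusted p = 0.119, edgeR). Leaving out ATV-TfR replicate 1 ended the calls of Klk6, Sirt2, Nfasc, Anln and Apod, and leaving out replicate 2 those of Sirt2, Nfasc, Hapln2 and Apod, with adjusted p from 0.0556 to 0.375 (edgeR). These genes were named for their size among those called, and the same cell numbers and marker levels apply to them as to the members.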

How the results depend on the processing

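Over all alternatives 1280 of 1352 member values in oligodendrocyte-like cells kept their side of the threshold, without a turn of direction among called values. So did 537 of 585 in astrocyte-like, 275 of 308 in microglia-like and 430 of 456 in endothelial-like cells. Values that turned direction but were called in neither fit count as kept, and causes of the exceptions were not tested. In oligodendrocyte-like cells the main fit called members in ATV-TfR medium alone (6 higher and 1 lower). Most kept values there were therefore called in neither fit, and the kept count says little about called results. Of the rest, 19 lost a call, 30 gained one and 23 turned direction with a call in at least 1 of the fits. Small numbers of oligodendrocyte-like cells limit the medium bins, and the high minus negative difference between the ATVs was not run for want of cells. Dropping cells with foreign markers and adding the second cluster were chosen after seeing the data. Most counts of members below come without the share of all genes called in the same fit, and were not compared with it.

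With classes from markers per cell, the members in oligodendrocyte-like cells changed by -0.20 (Cldn11), -0.48 (Cnp), -0.054 (Mag), -0.77 (Mbp), -0.12 (Mobp), -0.56 (Mog) and -0.42 (Opalin) in ATV-TfR medium, with 0 higher and 2 lower. In ATV-CD98hc medium they changed by -1.11 (Cldn11), -1.54 (Cnp), -1.33 (Mag), -1.33 (Mobp), -1.34 (Mog) and -1.49 (Opalin), with 8 lower, and in ATV-CD98hc low by -0.88 (Cldn11), -0.97 (Cnp), -0.68 (Mag), -0.87 (Mobp), -0.80 (Mog) and -0.90 (Opalin), with 8 lower. ATV-TfR low then had 1 lower, and Tspan2 in ATV-CD98hc medium was at -1.03. Scaled to the oligodendrocyte markers, Cnp was at -0.028, Mbp at -0.49, Mog at -0.11 and Opalin at -0.00061 in ATV-TfR medium, with 0 higher and 2 lower, and ATV-CD98hc medium had 1 lower. Adding the second cluster gave 1 lower in ATV-CD98hc low, and dropping foreign-marker cells gave 0 lower in ATV-TfR medium and 1 higher in ATV-CD98hc medium, as did DESeq2, RLE factors, kept doublets and the stricter filter for the latter. The interaction counted 1 higher with DESeq2, at least 50 cells or no filter and 2 at Leiden resolution 2, where Tcf7l2 in ATV-TfR low was at -0.17.

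With the replicate block, pairing samples by pool, the interaction had 2 higher, ATV-CD98hc medium 1 higher, and microglia-like cells 2 lower in ATV-CD98hc high and 3 in low; it changed no other count by over 1.5 times.

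In astrocyte-like cells a mitochondrial limit of 5% gave 1 lower in ATV-CD98hc high and 3 in low, the stricter filter 3 in ATV-CD98hc low and 4 in ATV-TfR low, and no filter 2 higher between negative bins. In endothelial-like cells the stricter filter gave 3 lower (high minus low), and DESeq2 3 and no filter 2 for ATV-CD98hc high minus negative (1 negative library of 20 cells), where edgeR called 0 of 8 members and 0% of genes, with 3 members at an unadjusted p below 0.05. In microglia-like cells ATV-CD98hc high had 0 lower with DESeq2, RLE factors, other cell minimums, the 5% limit or the stricter filter, 6 with doublets kept and 2 with no filter; ATV-CD98hc low had 0 with DESeq2, 8 with doublets kept (Cnp -0.86) and 3 with no filter; ATV-TfR low had 0 with DESeq2 or the stricter filter, 1 with at least 50 cells and 8 with doublets kept.

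Leaving out 1 pool at a time gave, in oligodendrocyte-like cells, 0 to 6 higher and 0 to 1 lower in ATV-TfR medium, 0 to 1 lower in ATV-TfR low, 0 to 1 higher in ATV-CD98hc medium, 0 to 3 higher in ATV-CD98hc low and 0 to 2 higher for the interaction. In astrocyte-like cells it gave 0 to 1 higher and 1 to 6 lower in ATV-TfR high, 1 to 7 lower in ATV-TfR low, 0 to 1 higher and 0 to 2 lower in ATV-CD98hc high, 0 to 1 higher and 3 to 5 lower in ATV-CD98hc low, and 0 to 1 higher between negative bins. In microglia-like and endothelial-like cells it gave 0 to 2 lower in ATV-TfR low, 0 to 1 lower in ATV-CD98hc low and high and 0 to 1 higher between negative bins of the former, and 3 to 7 lower in ATV-CD98hc high minus low of the latter.

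Over pools, levels moved with negative bins alone to 1881 CPM (Mobp) and 1666 CPM (Ermn) in oligodendrocyte-like cells, 94.4 CPM for Cnp in astrocyte-like, 146 CPM for Cnp in ependymal-like, 36.4 CPM for Mag in microglia-like and 51.6 CPM for Cldn11 in fibroblast-like cells (78.0 at resolution 2). With doublets kept, Mbp was at 4587, Mobp at 1845 and Ermn at 1515 CPM in oligodendrocyte-like cells, and Mag at 53.9 CPM in microglia-like cells. The sum of the 8 genes in negative bins alone was 196 CPM in astrocyte-, 231 in microglia-, 158 in endothelial-, 206 in pericyte-, 259 in ependymal-, 166 in choroid plexus epithelial-, 257 in fibroblast- and 721 in border macrophage-like cells, and with doublets kept 317 in microglia-, 204 in pericyte- and 199.6 in smooth muscle-like cells.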

Other observations

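An unnamed cluster of 1075 cells, led by Slc24a2, Tmeff2, Nkain2 and St18, held 8 of 12 oligodendrocyte markers and 4 of 8 markers of differentiating precursors. In its 4 negative libraries with at least 20 cells, Mobp was at 63.6% ± 7.49 (SD, n = 4) of its oligodendrocyte-like level, Mbp at 61.8% ± 12.0 and Cldn11 at 58.6% ± 9.10. Mag (44.9%), Opalin (44.1%) and Mog (43.9%) were lower, and Ermn (17.2% ± 2.26) and Cnp (15.8% ± 4.71) the lowest. Cnp, the highest member relative to its oligodendrocyte-like level in astrocyte-like cells, was among the 2 lowest in every library of this cluster. Astrocyte markers were at 2637 to 7280 CPM in those libraries. The median UMI count of its cells, relative to their library's median, was 0.662, against 1.503 in the oligodendrocyte-like cluster. Adding it to that class raised the cells from 1312 to 1715 in ATV-TfR negative replicate 1, the largest rise among the negative libraries. The part of depth and of this library in the levels was not tested.

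Across 56 sums of a class and a pool, the gene most like Mog was Opalin (Pearson r = 0.987 of log2(CPM + 1), 11346 genes compared), and the gene most like Ermn was Mog (r = 0.976). Cldn11 was most like Smco3 (r = 0.959), Mag most like Galnt6 (r = 0.948) and Cnp most like Plxnb3 (r = 0.942). The points share libraries and their depth.

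Between the 5293 oligodendrocyte-like cells of the negative bins, Cnp and Ermn varied together (Pearson r = 0.415 of log2 depth-normalised UMIs), as did Mobp with Cnp (r = 0.349) and with Ermn (r = 0.344). Mag and Ermn did not (r = -0.09), nor did Mbp and Mag (r = 0.01). These are descriptions over cells that share libraries.

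Barcodes that failed the filters held the 8 genes at a summed 1344 to 4415 CPM in negative libraries, 244 to 1884 CPM in low ones and 69.5 to 849 CPM in medium and high ones.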
